A study of Mus musculus with 6 samples.

Results

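Excitation-contraction coupling was followed through 10 genes of the triad and of the calcium store, taken by symbol from the deposited gene table: Cacna1s, Cacng1, Stac3, Ryr1, Jph1, Trdn, Casq1, Casq2, Sln and Pln. They are 10 of the 24054 genes in that table, and all 10 were among the 12660 genes that passed the filter on low counts. The measurements are RNA-seq of whole gastrocnemius muscle from male C57BL/6 mice, in 3 libraries from mice that lack IRF4 in muscle (MI4KO) and 3 from mice that overexpress it there (MI4OE). MI4KO mice carry floxed Irf4 alleles and a Cre under control of the Myl1 locus, which is active in skeletal muscle fibres. MI4OE mice carry the same Cre with an Irf4 transgene behind a stop cassette in the Rosa26 locus. Cre is thus present in both groups, and each comparison sets a knockout against an overexpressor with no wild-type gastrocnemius beside them. The labels give a high fat diet for every library while the study's text describes chow, so the diet is uncertain, and the age of these mice was not given in the sources used here. No label says that each library is a separate animal, and the p-values measure the spread between these libraries.

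In a skeletal muscle fibre an action potential runs down the transverse tubule, where it moves the voltage sensor CaV1.1. The sensor opens the ryanodine receptor RyR1 in the facing membrane of the sarcoplasmic reticulum, and calcium leaves the store to start contraction. Calsequestrin holds calcium inside the store, junctophilin and triadin keep the junction together, and SERCA pumps return the calcium, restrained by the small membrane proteins sarcolipin and phospholamban. Fast and slow fibres use partly different versions: Casq1 is the main calsequestrin of fast fibres, and Casq2 is the cardiac form that slow fibres also make. The mouse gastrocnemius is mostly a fast muscle.

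The 10 genes divide into an abundant set of 7 and a scarce set of 3. The abundant set, namely the voltage sensor, the release channel, the triad scaffolds and Casq1, showed no called difference between the genotypes. The scarce set, Casq2, Sln and Pln, had its highest value in each case in 1 library, MI4OE replicate 1. Casq2 and Sln were higher in MI4OE by the study's criterion of at least 1.5-fold and an unadjusted p under 0.05, a criterion that 4.36% of all tested genes met in the higher direction and 2.28% in the lower direction. At an adjusted p under 0.05, which 0.0237% of all tested genes reached, there was none of the 10 genes by edgeR, and Casq2 and Sln were the 2 with an unadjusted p under 0.05.

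The manipulated gene matched the labels. Irf4 was between 0 and 0.246 CPM (counts scaled to library size) in MI4KO and between 141 and 369 CPM in MI4OE. Gt(ROSA)26Sor, at the locus of the transgene, ran from 0.504 to 0.778 CPM and from 69.9 to 87.3 CPM. Total expected counts ran from 18828605 in MI4OE replicate 1 to 29239585 in MI4KO replicate 3, and 3 counts correspond to 0.101 to 0.148 CPM. MI4OE replicate 1 stood apart, since its 10 most abundant genes took 25.5% of its counts and those of the other libraries took 32.8% to 36.8%. It also held most of the slow-fibre signal. The summed TPM (RSEM's length-adjusted abundance) of 9 slow-fibre genes was 10590 there and 1010 in MI4OE replicate 3, while the other 4 libraries ran from 14.2 to 149. Of 7 heart markers Nppb and Myl7 were at 0 counts in every library, while Tnnt2 had 40 to 196 counts and Myl4 105 to 263. Myh6 had 160 counts in MI4OE replicate 1, 28 in MI4OE replicate 3 and 1 to 4 elsewhere. In whole muscle, fewer fibres of a type and less RNA per fibre cannot be told apart.

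**Figure D1:**
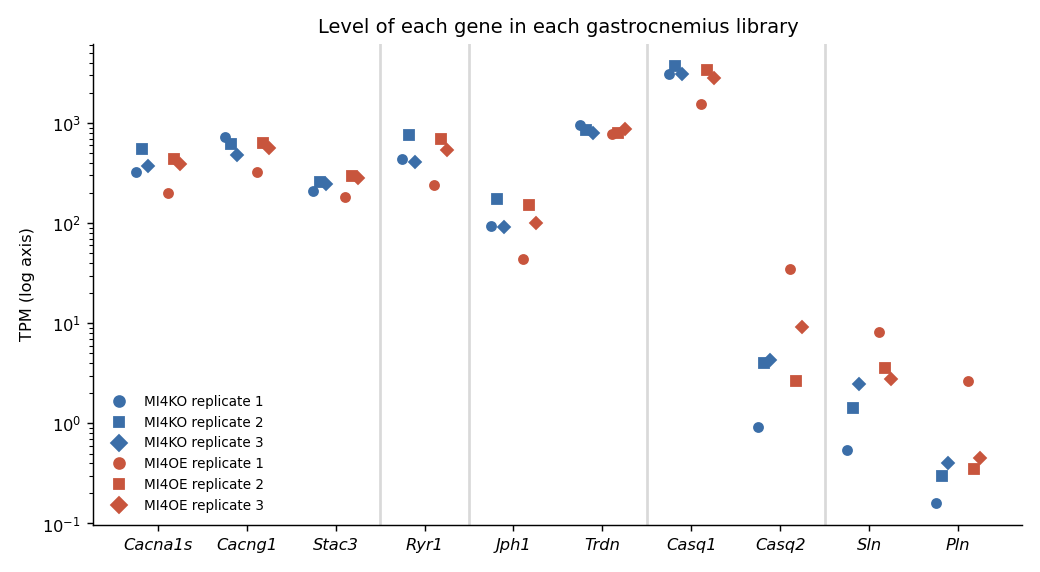
Level of the 10 genes in each of the 6 libraries, as TPM on a log axis, with MI4KO in blue, MI4OE in red and 1 symbol per replicate. Grey lines part the voltage sensor, the release channel, the scaffolds, the store and the pump regulators. Casq2, Sln and Pln reach at most 35.2 TPM and the other genes are at 43.9 TPM or more, and MI4OE replicate 1 (red circle) is highest for those 3 and lowest in TPM for the other 7.

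Levels of different genes were compared as TPM, which corrects for transcript length. The order by mean over all libraries was Casq1 at 2956 TPM, Trdn at 846, Cacng1 at 559, Ryr1 at 511, Cacna1s at 382, Stac3 at 246, Jph1 at 110.1, Casq2 at 9.38, Sln at 3.16 and Pln at 0.717. Casq1 exceeded Trdn in all 6 libraries with ranges that did not meet. Cacng1 was above Ryr1 in only 4 of 6 libraries, so this pair has no fixed order. Ryr1 was above Cacna1s, and Cacna1s above Stac3, in 6 of 6 libraries although their ranges overlapped. Casq2 was above Sln in 5 of 6 libraries and Sln above Pln in 6 of 6.

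The DNA before the start of the 2 calsequestrin genes is shown because this pair is contrasted below. Each run is the 250 bases upstream of the gene's start in RefSeq's annotation of GRCm38.p6. Capitals mark the E-box CAGCTG, a motif that myogenic bHLH factors bind.
Casq1, chr1:172219896-172220145, minus strand: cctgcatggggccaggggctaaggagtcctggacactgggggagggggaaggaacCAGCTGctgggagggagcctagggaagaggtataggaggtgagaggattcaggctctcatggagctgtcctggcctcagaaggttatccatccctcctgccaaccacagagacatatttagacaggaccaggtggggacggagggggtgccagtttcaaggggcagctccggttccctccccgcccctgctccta
Casq2, chr3:102086165-102086414, plus strand: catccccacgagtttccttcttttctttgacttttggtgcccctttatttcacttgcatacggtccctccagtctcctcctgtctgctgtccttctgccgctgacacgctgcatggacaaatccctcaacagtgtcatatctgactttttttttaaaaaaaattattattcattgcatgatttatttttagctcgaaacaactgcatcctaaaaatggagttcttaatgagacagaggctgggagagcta

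The Casq1 window held 1 E-box, whose first base lies at -195 from the start, and the Casq2 window held none. Windows of this kind were at hand for Ryr1, Cacna1s, Casq1, Casq2 and Pln, that is 5 of the 10 genes, which is too few to check the group. The motifs searched, on both strands, were the E-box CAGCTG, an interferon-stimulated response element core GAAANNGAA, an Ets-IRF composite core GGAANNGAA and a MEF2 core CTATTTNTA. Cacna1s held the only other match to these letters, an E-box with its first base at -123. Looser forms of the motifs were not searched. Of 32851 windows of the same length, 13% held the E-box, 7.13% the response element core, 6.99% the composite core and 1.2% the MEF2 core. The search gives letters in these windows and nothing about binding.

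Cacna1s encodes the pore-forming subunit of the voltage sensor. It was at 1516, 1878 and 1465 CPM in MI4KO replicates 1 to 3 and at 840, 1567 and 1428 CPM in MI4OE replicates 1 to 3. The low value was that of MI4OE replicate 1 and the groups overlapped. The log2 fold change, MI4OE minus MI4KO, was -0.34 with a standard error (SE) of 0.27 and an adjusted p of 0.843. With 1 library left out it ranged from -0.52 (without MI4OE replicate 2) to -0.12 (without MI4OE replicate 1).

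Cacng1, the gamma subunit of the same channel, was at 603, 375 and 337 CPM in MI4KO against 241, 396 and 366 CPM in MI4OE. MI4KO replicate 1 was the high library and MI4OE replicate 1 the low one. Between the groups the log2 fold change was -0.39 (SE 0.29, adjusted p = 0.835). With 1 library left out it ranged from -0.56 (without MI4KO replicate 3) to -0.097 (without MI4KO replicate 1).

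Stac3 encodes the adaptor that brings CaV1.1 to the triad and couples it to the release channel. Its values were 269, 239 and 265 CPM in MI4KO and 211, 287 and 282 CPM in MI4OE, with MI4OE replicate 1 lowest again. The log2 fold change of 0.01 (SE 0.19, adjusted p = 0.994) was the smallest of the 10 and took either sign when libraries were left out. Relative to Cacna1s within the same library, Stac3 stood at 64.6%, 46.5% and 66% of the Cacna1s TPM in MI4KO and at 91.3%, 66.8% and 72.1% in MI4OE. These shares did not overlap between the groups, by 66% against 66.8% at the nearest, and the exact two-sided permutation p of 0.1 is the smallest that 3 libraries against 3 can give. Several such pairs were compared, and no background share over all gene pairs was computed. Cacna1s, Trdn and Casq1 against Ryr1, and Cacng1 against Cacna1s, overlapped between the groups.

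Cacna1s was 1 of 2 genes here with a second listed transcript, and the best known difference between forms of this channel is exon 29. This exon lengthens an extracellular linker next to a voltage-sensing segment. Adult muscle mainly includes it, and embryonic muscle mainly skips it to give a channel that passes more calcium current. In GENCODE's annotation of GRCm38 the transcript NM_001081023 includes exon 29 of its 44, a coding exon of 57 bases or 19 codons, and NM_014193 lacks it. The exon is shown because it is in 1 of the 2 listed transcripts and not in the other.
Cacna1s exon 29, chr1:136104570-136104626, plus strand: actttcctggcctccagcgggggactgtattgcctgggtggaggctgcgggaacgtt

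The transcript with exon 29 received 34.2%, 44.2% and 34.5% of the Cacna1s counts in MI4KO and 21.6%, 40.8% and 33.8% in MI4OE, so the transcript listed without the exon took the larger share in each library. The mean shares were 37.6 ± 5.69% (SD, n = 3) and 32.1 ± 9.73% (SD, n = 3), and the groups overlapped. The difference of -5.56 percentage points had an exact two-sided permutation p of 0.4. With 1 library left out it ranged from -9.94 (without MI4OE replicate 2) to -0.32 (without MI4OE replicate 1). In the GENCODE models, of 44 and 43 exons, 39 have the same ends in both transcripts, so exon 29 is not their only difference. The model of NM_014193 there is 6018 bases long, whereas RSEM used one of 6188 bases, beside 6251 for NM_001081023, so the structure quantified may differ from the one described. RSEM divided 50-base reads between the transcripts, and the share is an estimate and not a count of reads across the exon.

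Ryr1 encodes the release channel itself. It was at 5123, 6398 and 3967 CPM in MI4KO against 2526, 6128 and 4900 CPM in MI4OE. Replicate 2 was the highest library of each genotype and MI4OE replicate 1 the lowest of all. Ryr1 had a log2 fold change of -0.19 (SE 0.36, adjusted p = 0.93), and without MI4OE replicate 1 it was 0.092.

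Ryr1 has a long transcript of 15362 bases, and the libraries differed in the level of long against short genes. The median deviation of the longest 10% of tested genes minus that of the shortest 10%, on the log2 CPM scale, was 0.56 in MI4KO replicate 2, 0.41 in MI4OE replicate 2 and 0.11 in MI4OE replicate 3. It was -0.19 in MI4KO replicate 3, -0.30 in MI4KO replicate 1 and -0.56 in MI4OE replicate 1. The libraries at the ends of this order were those with the highest and the lowest Ryr1 and the highest and the lowest share of NM_001081023. The order did not hold in the middle, where MI4KO replicate 1 had the second lowest value of the pattern and the third highest Ryr1 level. The part of this length pattern in the Ryr1 spread was not tested. With it as a covariate the log2 fold change of Ryr1 was -0.23 with an adjusted p of 0.627.

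**Figure D2:**
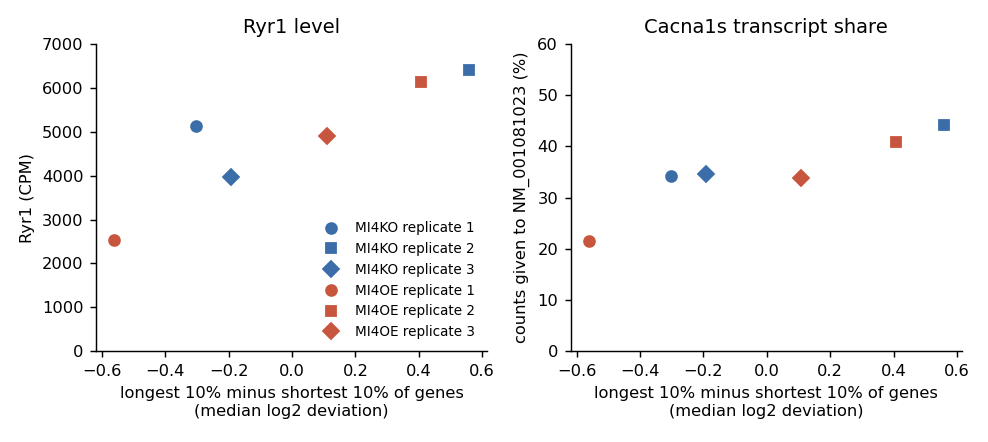
Ryr1 level in CPM (left) and percent of Cacna1s counts that RSEM gave to NM_001081023, listed with exon 29 (right), against the length pattern of each library. The length pattern is the median log2 deviation of the longest 10% of genes minus that of the shortest 10%. Each point is 1 library, MI4KO in blue and MI4OE in red. MI4OE replicate 1 is at -0.56 with 2526 CPM and 21.6%, and MI4KO replicate 2 is at 0.56 with 6398 CPM and 44.2%.

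Jph1 encodes the junctophilin that ties the transverse tubule to the store membrane. It was at 338, 456 and 277 CPM in MI4KO against 141, 420 and 286 CPM in MI4OE, the same library order at both ends as Ryr1. The log2 fold change was -0.34 (SE 0.39, adjusted p = 0.881), and it ranged from -0.74 (without MI4OE replicate 2) to -0.019 (without MI4OE replicate 1) with 1 library left out. Set against Ryr1 within a library, Jph1 held a narrow share of the Ryr1 TPM, 21.4%, 23.2% and 22.7% in MI4KO and 18.1%, 22.3% and 19% in MI4OE, and the groups overlapped.

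Trdn encodes triadin, which anchors calsequestrin to the release channel. Its values were 3264, 2094 and 2264 CPM in MI4KO and 2322, 2044 and 2303 CPM in MI4OE. Trdn was the exception among the abundant genes, for MI4OE replicate 1 was not its lowest library in CPM. MI4KO replicate 1 was high and the other 5 libraries lay between 2044 and 2322 CPM. Between the groups the log2 fold change was -0.19 (SE 0.23, adjusted p = 0.885), and without MI4KO replicate 1 it was 0.023.

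Casq1, the fast calsequestrin and the most abundant gene of the set, was at 4162, 3628 and 3509 CPM in MI4KO against 1844, 3470 and 3008 CPM in MI4OE. Every MI4OE library lay below every MI4KO library in CPM, by 3470 against 3509 at the nearest. Such a gap in the lower direction was found in 5.48% of all tested genes. Casq1 had a log2 fold change of -0.44 (SE 0.27, unadjusted p = 0.145, adjusted p = 0.78), and it was -0.22 without MI4OE replicate 1. In TPM the groups overlapped, at 3092, 3735 and 3117 in MI4KO and 1537, 3398 and 2855 in MI4OE. Casq1 followed Atp2a1, the SERCA1 pump of fast fibres, within each library. It was 18.3%, 17% and 18.6% of the Atp2a1 TPM in MI4KO and 16%, 16.8% and 16.5% in MI4OE, which did not overlap (exact permutation p = 0.1). Relative to the Ryr1 TPM, Casq1 overlapped between the groups (exact permutation p = 0.3).

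Casq2, the calsequestrin shared by heart and slow fibres, went the other way. It was at 1.68, 5.27 and 6.58 CPM in MI4KO, from 41, 133 and 196 counts, and at 57.7, 3.67 and 13.3 CPM in MI4OE, from 1173, 105 and 301 counts. MI4OE replicate 1 was high, MI4OE replicate 3 came next, and MI4OE replicate 2 lay within the MI4KO range. The means were 4.51 ± 2.54 CPM (SD, n = 3) and 24.9 ± 28.8 CPM (SD, n = 3). The log2 fold change was 2.45 (SE 0.94), a 5.47-fold difference, with an unadjusted p of 0.033 and an adjusted p of 0.607. It was 0.90 with an unadjusted p of 0.206 without MI4OE replicate 1. The call was lost also without MI4KO replicate 1 (log2 fold change 2.06, unadjusted p = 0.107) and without MI4KO replicate 2 (2.56, unadjusted p = 0.0711), where the difference stayed within 1 SE of its value over all libraries. It was lost as well with limma on log2(TPM + 1) (1.58, unadjusted p = 0.0883) and log2(TPM + 0.1) (1.88, unadjusted p = 0.0915) and with the length pattern as a covariate (1.65, unadjusted p = 0.126).

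The contrast between the calsequestrins was taken as a ratio within each library, log2 of (Casq2 TPM + 1) over (Casq1 TPM + 1). It was -10.66, -9.55 and -9.21 in MI4KO and -5.41, -9.87 and -8.12 in MI4OE. As a share of both calsequestrins' TPM, Casq2 was 0.0294%, 0.106% and 0.137% in MI4KO and 2.24%, 0.0773% and 0.323% in MI4OE. Casq1 made up the remainder, so that even in MI4OE replicate 1 the pair was almost all Casq1. The mean log2 ratios were -9.81 ± 0.76 (SD, n = 3) and -7.80 ± 2.25 (SD, n = 3), a difference of 2.01 with an exact two-sided permutation p of 0.3. The difference was 0.81 without MI4OE replicate 1 and 3.04 without MI4OE replicate 2.

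**Figure D3:**
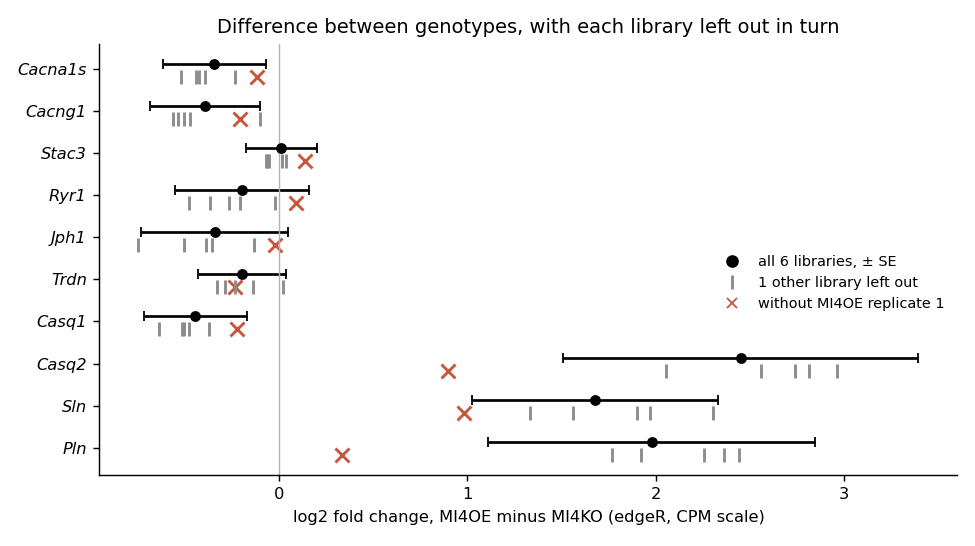
Log2 fold change of each gene, MI4OE minus MI4KO, from edgeR on the CPM scale with its SE (black), and the same value with 1 library left out (grey bars, or a red cross for MI4OE replicate 1). Without that library Casq2 moves from 2.45 to 0.90, Sln from 1.68 to 0.98 and Pln from 1.98 to 0.34, and Ryr1 moves from -0.19 to 0.092.

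Sln encodes sarcolipin, a regulator of the SERCA pumps that in the mouse is made in atria and in some skeletal muscles. It had 4, 8 and 19 counts in MI4KO and 45, 24 and 15 counts in MI4OE, which correspond to 0.164, 0.317 and 0.638 CPM and to 2.21, 0.839 and 0.662 CPM. All 3 MI4OE libraries were above all 3 MI4KO libraries, as in 7.38% of all tested genes. Sln passed the filter on low counts through the MI4OE libraries, since in MI4KO only replicate 3 was above the minimum count of 10. Its call and this gap are therefore not independent of the filter. The nearest pair was MI4OE replicate 3 and MI4KO replicate 3, whose counting error overlapped (95% exact Poisson intervals of 0.371 to 1.09 CPM and 0.384 to 0.997 CPM, for counting error only). Between the groups the log2 fold change was 1.68 (SE 0.65), a 3.21-fold difference, with an unadjusted p of 0.0343 and an adjusted p of 0.612. It was 0.98 with an unadjusted p of 0.154 without MI4OE replicate 1. The call was lost also without MI4KO replicate 1 (log2 fold change 1.33, unadjusted p = 0.0988) and without MI4KO replicate 2 (1.56, unadjusted p = 0.0912), again with a difference within 1 SE of that over all libraries.

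Pln encodes phospholamban, the SERCA2 regulator of heart and slow fibres. It had 7, 10 and 17 counts in MI4KO and 82, 13 and 14 counts in MI4OE, or 0.287, 0.396 and 0.571 CPM and 4.03, 0.454 and 0.618 CPM. The counting intervals of the 5 libraries other than MI4OE replicate 1 overlapped each other, and together they spanned 0.115 to 1.04 CPM. Pln had a log2 fold change of 1.98 (SE 0.87, unadjusted p = 0.0539, adjusted p = 0.671), and it was 0.34 without MI4OE replicate 1. Pln passed the study's criterion with DESeq2 (unadjusted p = 0.0176) and with edgeR's exact test (unadjusted p = 0.0232), and also without the filter (unadjusted p = 0.0336), without MI4OE replicate 2 (2.44, unadjusted p = 0.014) and without MI4OE replicate 3 (2.37, unadjusted p = 0.029). RSEM gave the Pln counts to 1 or the other of 2 listed transcripts in an all-or-none way in 5 of 6 libraries, and at 7 to 82 counts the split was not read further.

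**Figure D4:**
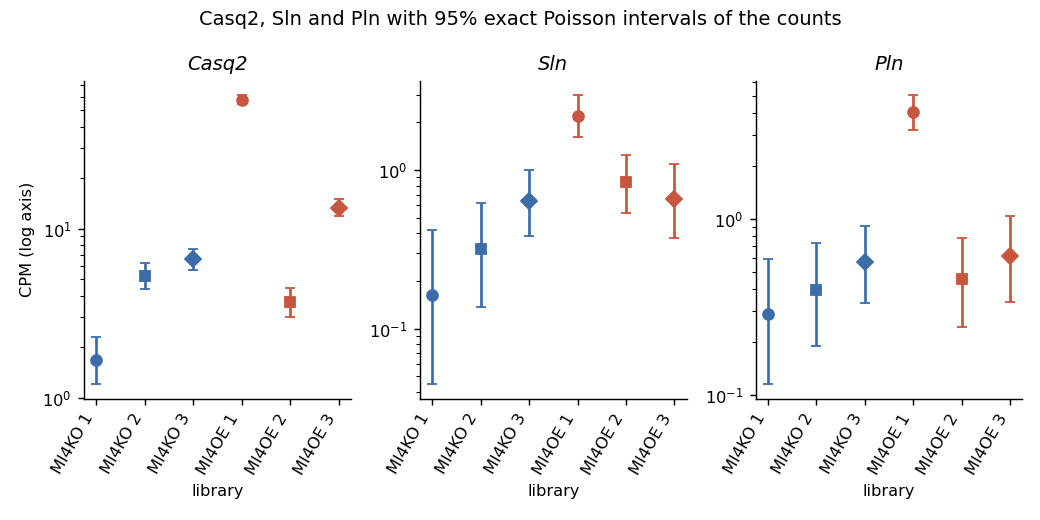
Casq2, Sln and Pln in each library as CPM on a log axis, with 95% exact Poisson intervals of the counts as bars, MI4KO in blue and MI4OE in red. MI4OE replicate 1 is above all other libraries for each gene, and for Sln and Pln the intervals of MI4OE replicates 2 and 3 overlap that of MI4KO replicate 3.

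The pump regulators were also compared with each other. Pln was 22.9%, 17.2% and 13.8% of the summed TPM of Pln and Sln in MI4KO and 24.5%, 8.84% and 14% in MI4OE, so Sln was the larger in each library. On the log2 scale with 1 TPM added to each gene, the Pln to Sln ratio was -0.41, -0.91 and -1.32 in MI4KO and -1.33, -1.77 and -1.38 in MI4OE. The difference was -0.61 with an exact permutation p of 0.1 and no overlap. This absence of overlap depended on the added TPM, since with 0.1 TPM added the difference was -0.46 with a p of 0.4 and the shares themselves overlapped. Relative to the pumps, the regulators were scarce beside Atp2a1 and less so beside the minor pump gene Atp2a2. Sln was 0.0032%, 0.00657% and 0.0148% of the Atp2a1 TPM in MI4KO and 0.0848%, 0.0178% and 0.016% in MI4OE. Against the Atp2a2 TPM, Sln ranged from 5.61% to 28.2% over the 6 libraries and Pln from 1.52% to 4.53%, with overlap between the groups for both.

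Other calcium genes were taken from 3 lists of triad, store and isoform genes. Of 36 genes in the 3 lists, 35 were in the table and 29 were tested. By the study's criterion 2 were higher, Atp2a2 and Atp2a3, and 1 was lower, Itpr1, and none reached an adjusted p under 0.05. That criterion was met by 4.36% of all tested genes in the higher direction and by 2.28% in the lower. The median log2 fold change of the 29 was -0.18, with 24 of them negative, beside -4.3e-05 over all tested genes, of which 6333 of 12660 were negative. The median of the 10 genes described above was -0.19, with 6 negative. These medians and signs are over all libraries and were not repeated without MI4OE replicate 1.

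Atp2a2 encodes SERCA2, the pump of slow fibres and heart. It was at 21.8, 46.2 and 24.5 CPM in MI4KO against 426, 34.5 and 75 CPM in MI4OE. As with Casq2, MI4OE replicate 2 lay within the MI4KO range. The log2 fold change was 2.53 (SE 0.88, unadjusted p = 0.0214, adjusted p = 0.557), and it was 0.82 with an unadjusted p of 0.085 without MI4OE replicate 1. The Atp2a2 call was lost also without MI4KO replicate 1 (2.32, unadjusted p = 0.0817) and without MI4KO replicate 3 (2.37, unadjusted p = 0.0616). It was lost as well with limma on log2(TPM + 1) and log2(TPM + 0.1) (unadjusted p = 0.0581 and 0.0599) and with the length pattern as a covariate (1.76, unadjusted p = 0.131). Relative to Atp2a2 in the same library, Casq2 was 13.9%, 20.1% and 48.5% of its TPM in MI4KO and 24.4%, 18.9% and 31.9% in MI4OE, with full overlap, while Casq2 itself spanned 0.91 to 35.2 TPM.

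Atp2a3, the SERCA3 pump found in endothelium and blood cells among others, was at 3.44, 5.03 and 5.54 CPM in MI4KO against 16, 7.48 and 7.99 CPM in MI4OE without overlap. Such a gap in the higher direction was found in 7.38% of all tested genes. Between the groups the log2 fold change was 1.16 (SE 0.34, unadjusted p = 0.0102, adjusted p = 0.521). The summed TPM of 4 endothelial markers ran from 23.6 to 52.7 in MI4KO and from 57.8 to 95.9 in MI4OE, 3 of the 4 were called higher, and their part in the Atp2a3 difference was not tested. Itpr1, an inositol trisphosphate receptor of the store, was at 35.8, 27.7 and 28.1 CPM in MI4KO against 15.2, 19.6 and 22.2 CPM in MI4OE without overlap, as in 5.48% of all tested genes in the lower direction. Itpr1 had a log2 fold change of -0.68 (SE 0.19, unadjusted p = 0.00866, adjusted p = 0.521), and it fell short of 1.5-fold without MI4OE replicate 1, at -0.55, without MI4KO replicate 1, at -0.56, and with limma on log2(TPM + 1), at -0.49.

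The other store and triad genes named here did not pass the test. Atp2a1 was at 42974, 40294 and 35750 CPM in MI4KO against 21749, 39110 and 34473 CPM in MI4OE, with a log2 fold change of -0.32 (SE 0.28). Pvalb, the soluble calcium buffer of fast fibres, had a log2 fold change of -0.51 (SE 0.28, adjusted p = 0.736). Srl (sarcalumenin) had -0.33, Jph2 had -0.18, Mrln (myoregulin) had -0.23, Jsrp1 (a junctional protein that binds the voltage sensor) had -0.08 and Hrc (a histidine-rich calcium-binding protein of the store) had 0.04. Without MI4OE replicate 1, Atp2a1 was at -0.11, Srl at -0.13, Jph2 at 0.099, Pvalb at -0.38 and Mrln at -0.18. Jsrp1 was then at -0.25 and Hrc at -0.0097. Of 15 other triad and voltage sensor genes, 14 had a negative log2 fold change over all libraries, none was called and their median was -0.18. The cardiac release channel Ryr2 was at or below 0.436 CPM in each library and was not tested.

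The library in which Casq2, Sln and Pln were highest was also that with the highest summed level of slow-fibre genes and the lowest summed level of fast-fibre genes. Myh7 encodes the myosin heavy chain of slow fibres and was at 0.205, 20.5 and 1.04 CPM in MI4KO against 1603, 0.28 and 162 CPM in MI4OE. Tnnc1, the slow and cardiac troponin C, was at 0.409, 4.6 and 0.638 CPM in MI4KO and 406, 0.0699 and 35.9 CPM in MI4OE. The summed TPM of 10 fast-fibre genes was 167290 in MI4OE replicate 1 and ranged from 215030 to 247940 in the other libraries. Not every fast-fibre gene followed the sum. Myh1 and Myh2, the myosin heavy chains of the IIx and IIa types, were highest in MI4OE replicate 1, at 10167 CPM (566 to 5964 elsewhere) and 7421 CPM (3.44 to 1808 elsewhere). Mylpf, Tnnc2 and Tnni2 were lowest in MI4KO replicate 2 in CPM. Of 8 tested slow-fibre genes 6 were called higher, beside 4.36% of all tested genes, and none of the 10 fast-fibre genes was called. Casq2 and Myh7 shared their 2 highest libraries, MI4OE replicates 1 and 3, and their lowest, MI4KO replicate 1. Sln did not share the second, since MI4OE replicate 2 held its second highest value. The part of slow-fibre content in these differences was not tested.

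**Figure D5:**
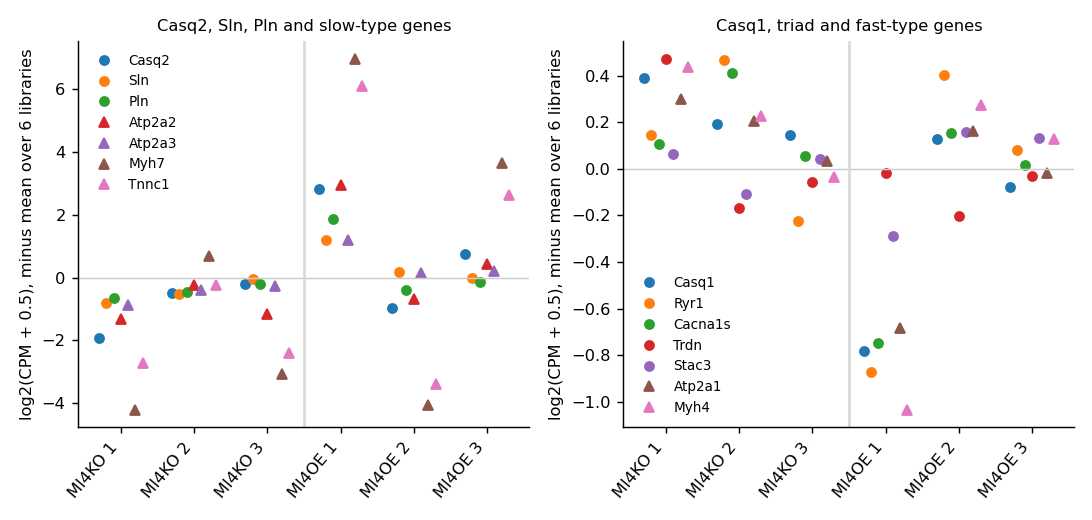
Log2(CPM + 0.5) minus its mean over the 6 libraries, for Casq2, Sln, Pln, slow-type genes and Atp2a3 (left) and for Casq1, triad genes and fast-type genes (right). Atp2a3 is not on the slow-fibre list. Circles are genes of the set, triangles other genes, and the grey line parts MI4KO from MI4OE. On the left all 7 genes are highest in MI4OE replicate 1, and on the right all but Trdn are lowest there.

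Likeness of pattern was measured as the root mean square difference of centred log2(CPM + 0.5) over the 6 libraries, against each tested gene with a mean of at least 5 CPM. For Casq2 the nearest were Idh2 at 0.30, Atp1b1 at 0.39, Klhl34 at 0.40, Slc25a34 at 0.43 and Fxyd6 at 0.43. Idh2, the mitochondrial NADP isocitrate dehydrogenase, was at 38.3, 61.6 and 144 CPM in MI4KO against 777, 67.7 and 191 CPM in MI4OE. For Sln the nearest were Shank3 at 0.14, Myadm at 0.15, Atp2a3 at 0.15, Tmem88 at 0.15 and Acss1 at 0.16. For Pln they were H19 at 0.11, Nceh1 at 0.18, Ephx2 at 0.18, 1810011O10Rik at 0.19 and Ddit3 at 0.20. H19, a long non-coding RNA, reached 952 CPM in MI4OE replicate 1 and ranged from 197 to 251 CPM elsewhere. The added 0.5 CPM is close to or above the Sln and Pln levels of most libraries and flattens their pattern.

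Markers of other cell types were counted by the study's criterion, and none reached an adjusted p under 0.05 by edgeR. Over all tested genes 4.36% were called higher and 2.28% lower, and the groups did not overlap in 7.38% (higher) and 5.48% (lower). Of 8 smooth muscle genes 3 were called higher, and the summed TPM of the list overlapped, from 118 to 226 in MI4KO and from 171 to 251 in MI4OE. The smooth muscle myosin Myh11 was at 14.7, 21.2 and 15.4 CPM in MI4KO against 51.4, 45.3 and 29.1 CPM in MI4OE. Smooth muscle makes Pln, Atp2a2 and Itpr1 too, and the part of these cells in their values was not tested. Of 6 adipocyte genes 5 were called lower in MI4OE, 4 did not overlap between the groups, and the median log2 fold change was -3.65. Their summed TPM overlapped (368 to 2011 against 346 to 739), and most of it in MI4OE replicate 1 was Fabp4, the 1 gene not called, at 731 of 739 TPM. All 4 fibroblast markers were called higher without overlap, and their summed TPM ran from 117 to 160 in MI4KO and from 205 to 274 in MI4OE. Of the heart list 2 of 7 genes were tested and none was called, nor was any of 4 Schwann cell markers.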

How the data were processed

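Gastrocnemius RNA was sequenced as single 50-base reads from stranded, mRNA-enriched libraries. According to labels and methods, the authors mapped reads to a UCSC transcript set with Bowtie2 2.1.0 and quantified them with RSEM 1.2.15, after demultiplexing with bcl2fastq 2.17. The genome build was not given in the sources used here. The authors deposited expected counts for genes and transcripts, as RSEM estimated them and without normalization. TPM, which the authors deposited beside them, corrects for transcript length. The deposited FPKM values and the deposited percent of each transcript within its gene were not used. The authors' comparison tables hold signed fold changes, p-values and false discovery rates, which were not used, nor were their 12 library columns.

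Expected counts were rounded and fitted with edgeR 4.0.16 (R 4.3.3), using filterByExpr (minimum count 10, minimum total 15), TMM factors, the quasi-likelihood test with default settings and Benjamini-Hochberg adjustment over the 12660 tested genes. CPM used TMM-scaled library sizes. SE is the log2 fold change divided by the root of its F statistic. Ratios and shares were compared by exact two-sided permutation over libraries, which cannot give a p below 0.1. Two-sided tests were used throughout, and the fits were tested on simulated data.

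The 10 genes, the lists and the tests were chosen with earlier results of these data known. Named genes were the 10 genes, Irf4 and Gt(ROSA)26Sor as label checks, Atp2a1, Atp2a2, Jsrp1, Hrc, Srl, Pvalb, Ryr2, Jph2 and Mrln, further listed calcium genes passing 1.5-fold and an unadjusted p of 0.05, marker genes, and for Casq2, Sln and Pln the 5 nearest patterns. Idh2, H19, Ryr3, Cacna1c and S100a1 were singled out after their values were seen. Mrln is listed as 2310015B20Rik in the table. Alternatives were RLE factors, no TMM, TMM without the 100 most abundant genes, a mean CPM of at least 1, no filter, DESeq2 1.42.0, edgeR's exact test, bias-adjusted deviances, limma 3.58.1 on log2(TPM + 1) and log2(TPM + 0.1), and leaving out each library. A length-pattern covariate and the leave-out values of transcript shares were added after seeing the data.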

Additional observations from a re-analysis of the deposited data

How the results depend on the processing

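No paired analysis was possible because replicate numbers follow accession order only. Casq2 kept its direction in each alternative, as did Sln wherever it was tested, and Pln likewise. None of the 10 genes reached an adjusted p under 0.05 in any alternative. By the study's criterion 2 of the 10 genes were called, against 1 with a mean CPM of at least 1, which drops Sln, 1 with limma on log2(TPM + 1), 1 with limma on log2(TPM + 0.1) and 1 with the length-pattern covariate, and from 0 (without MI4OE replicate 1, MI4KO replicate 1 or MI4KO replicate 2) to 3 with 1 library left out. It called 841 genes in all, 455 with limma on log2(TPM + 1), 933 with the covariate, and 590 to 1314 with 1 library left out, the highest without MI4OE replicate 2. At an adjusted p under 0.05 there were 3 genes, against 111 with DESeq2, 112 with the exact test, 5 with limma on log2(TPM + 0.1) and 1 (without MI4KO replicate 1) to 4 with 1 library left out. Of the other calcium genes 3 were called, against 1 with limma on log2(TPM + 1) and 1 (without MI4KO replicate 1 or MI4OE replicate 1) to 5 (without MI4KO replicate 2) with 1 library left out. Stac3 was at -0.0049 without the filter and Jsrp1 at 0.028 without TMM. With 1 library left out, Ryr1 ranged from -0.48 to 0.092, Stac3 from -0.065 to 0.14, Trdn from -0.33 to 0.023, Jsrp1 from -0.25 to 0.048, Hrc from -0.0097 to 0.082 and Jph2 from -0.45 to 0.099. Their causes were not tested. Total counts without TMM moved the median of all genes by 0.09 on the log2 scale. Depth limits Sln and Pln, which had 4 to 45 and 7 to 82 counts a library.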

Other observations

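Ryr3, the ryanodine receptor of diaphragm and developing muscle, reached 7.22 CPM in MI4KO replicate 3 and ranged from 0.246 to 1.40 CPM elsewhere. The genotypes did not differ past the threshold in edgeR's quasi-likelihood test (log2 fold change -1.59, SE 1.14, adjusted p = 0.818). MI4KO replicate 3 also held the highest summed TPM of 6 adipocyte markers, 2011 against 346 to 954 in the others. Cacna1c, the cardiac and smooth muscle channel, was at 0.328, 1.58 and 0.772 CPM in MI4KO against 1.77, 1.33 and 1.99 CPM in MI4OE, with overlap and an adjusted p of 0.762.

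S100a1, a calcium sensor that binds the ryanodine receptor, was the 1 gene of the 15 other triad genes with a positive log2 fold change, 0.59 (SE 0.49, adjusted p = 0.843). MI4OE replicate 1 held 237 CPM, and the remaining libraries ran from 58.6 to 99 CPM.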
